A study of Nothobranchius furzeri with 20 samples.

Results

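A set of 150 genes was lower in every 27-week fish than in every 9-week fish in the skin of the turquoise killifish (Nothobranchius furzeri). The 150 were chosen by measured values from the 26739 genes of the count table. Counts were scaled to a library total of 1000000 reads (CPM) and taken as log2(CPM + 0.5), and 16648 genes had a mean from 1 to under 1000 CPM over the 20 libraries. Of these, 644 had the highest of the 10 older fish below the lowest of the 10 younger fish. The ranges of both title runs of the older fish, explained below, overlapped in 458 of them, and those of exercised and unexercised younger fish also overlapped in 450. The 150 with the widest gap between the ages were kept. The gap was 0.168545 for the last gene inside the limit and 0.168162 for the first outside it, on the log2 scale, so the limit falls in a continuous series. The fall between 9 and 27 weeks is therefore how the genes were found, and it is described here without a test.

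All fish were males of the strain MZM-04/10p. The groups were 5 fish of 9 weeks with no perturbation, 5 fish of 9 weeks put in a swim tunnel, where fish swim against a current, and 10 fish of 27 weeks put in a swim tunnel. No unexercised fish of 27 weeks is labelled, so every 27-week value is from an exercised fish. Titles of the 27-week fish carry the numbers JM132 to JM136, here replicates 1 to 5, and JM140 to JM144, here replicates 6 to 10. These are called title runs, and both have the same labels. Each age and each 9-week group has title numbers of its own. Age and exercise thus cannot be told apart from whatever differs along with those numbers. Separate animals are not stated in the labels, so the spread between libraries may be partly technical.

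Fish skin is a living epithelium without a cornified layer over a dermis that carries scales. It holds keratinocytes, mucus-secreting cells, pigment cells, fibroblasts, scale-forming cells, vessels, nerves and immune cells. The turquoise killifish lives in seasonal pools and is used in research on ageing because it matures, ages and dies quickly. A level measured in whole skin depends on the number of cells of each type and on the RNA of each cell, and these cannot be told apart in such samples. The files pair no identifier with a gene name, and 0 of 26739 identifiers matched the reference gene table, so the genes are described by level, length and behaviour across fish. Markers of skin or of other tissues could not be looked up for the same reason, and only a few identifiers are given, with their values.

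Libraries held 20597690 to 38619614 counted reads. Every gene of the set had reads in every library. The lowest count of any gene in any library was 10, and 147 of the 150 genes had at least 20 counts in each library. Library factors of the trimmed mean of M-values (TMM), a scaling that lines libraries up on genes with moderate change, were 1.08 ± 0.0839 (SD, n = 5) in replicates 1 to 5 of 27 weeks and 0.891 ± 0.0443 (SD, n = 5) in replicates 6 to 10. They were 0.993 ± 0.0796 in exercised young fish and 1.05 ± 0.109 in unexercised ones (SD, n = 5 each). Levels of single genes and ratios of levels are given on library totals, and the main differences between the title runs are given with both scalings.

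The 150 genes together took a similar part of the library in all young fish and a smaller part in all old fish. Their summed level was 6893 ± 318 CPM (SD, n = 5) in unexercised and 6526 ± 675 CPM (SD, n = 5) in exercised fish of 9 weeks. It was 3201 ± 131 CPM in replicates 1 to 5 and 3778 ± 155 CPM in replicates 6 to 10 of 27 weeks (SD, n = 5 each). As a share of all counted reads this is 0.671% ± 0.0534 (SD, n = 10) at 9 weeks and 0.349% ± 0.0333 (SD, n = 10) at 27 weeks. The lowest young fish, exercised replicate 1, had 5978 CPM and the highest old fish, replicate 8, had 4018 CPM. The ages did not overlap, which the choice of the genes ensures. Within the older fish, replicates 1 to 5 spanned 3011 to 3373 CPM and replicates 6 to 10 spanned 3617 to 4018 CPM, so the title runs did not overlap in the summed level, although they did in each single gene. With TMM scaling the summed level was 2964 ± 241 CPM in replicates 1 to 5 and 4244 ± 179 CPM in replicates 6 to 10 (SD, n = 5 each), again without overlap, and the ages stayed apart.

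**Figure D1:**
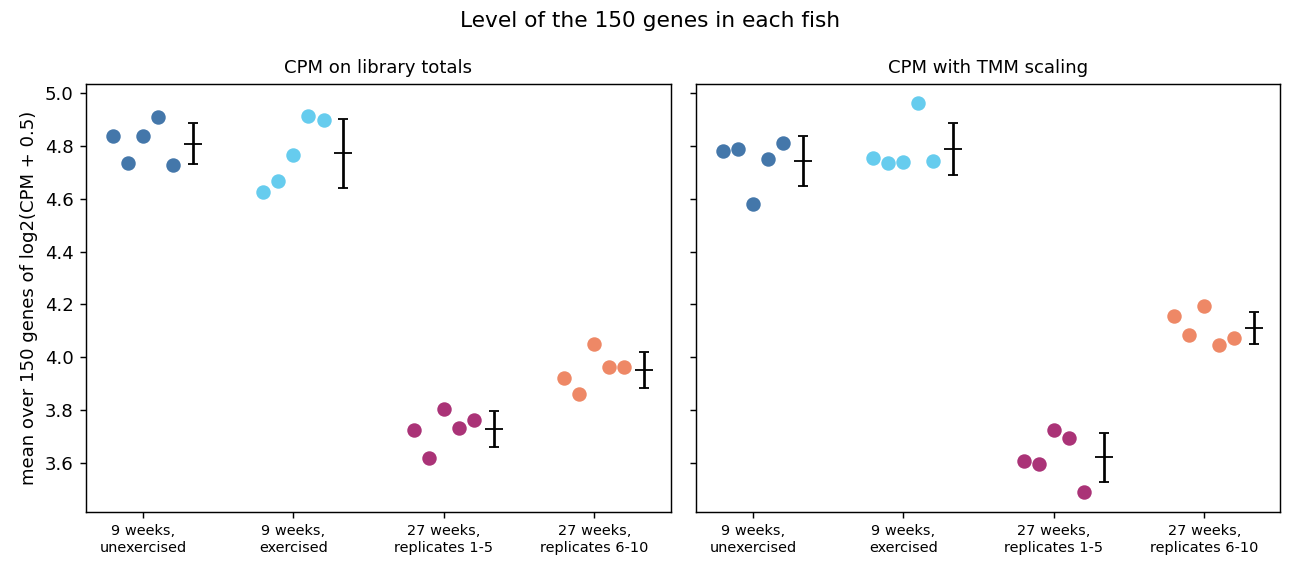
Mean of log2(CPM + 0.5) over the 150 genes in each of the 20 fish (points), with the mean and SD of each set of 5 (bars at the right), on library totals (left) and with TMM scaling (right). Old fish lie below young fish in both panels, and the distance between replicates 1 to 5 and 6 to 10 is wider with TMM scaling, at means of 3.62 and 4.11 against 3.73 and 3.95.

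Most falls were moderate. The mean CPM of the 10 young fish was 1.87 times that of the 10 old fish in the median gene, with the middle 50% of genes between 1.68 and 2.21 times and a full range of 1.42 to 5.37 times. The ratio exceeded 1.5 in 96.0% of the genes, 2 in 59 genes, 3 in 12 and 4 in 2. These last 2 were Nfu_g_1_017571, at 5.37 times, and Nfu_g_1_003428, at 4.43 times. Over all 16648 genes in the same CPM limits the median ratio was 1.05. On the log2 scale the median difference of 27 from 9 weeks was -0.88 for the set and -0.07 for all genes, or -0.81 relative to all genes. With TMM scaling these values were -0.83, -0.02 and -0.80. Scaling moves all genes of a library nearly alike, so the relative values had to be close.

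The rank by gap and the rank by fold differed, since the gap depends on the outermost fish of each age. The gap exceeded 0.5 on the log2 scale in 10 genes and 0.3 in 62, with a median of 0.28. The largest gap, 0.79, belonged to Nfu_g_1_005321, which is among the least abundant genes of the set. Unexercised fish of 9 weeks had 2.87, 2.54, 2.08, 1.82 and 1.91 CPM and exercised ones 1.79, 1.96, 3.16, 2.66 and 2.73 CPM, in the order of replicates 1 to 5. At 27 weeks, replicates 1 to 5 had 0.583, 0.502, 0.772, 0.647 and 0.706 CPM and replicates 6 to 10 had 0.823, 0.711, 0.697, 0.686 and 0.767 CPM. Both title runs overlapped closely here, with 12 to 27 counts per library in the first and 19 to 26 in the second, while young fish had 51 to 116 counts. The ratio of means was 3.41.

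The second gap, 0.76, was that of Nfu_g_1_000948, a long and abundant gene of 6.46 kb. It had 158.0, 174.5, 152.3, 228.9 and 179.0 CPM in unexercised and 181.3, 158.7, 138.5, 259.2 and 170.7 CPM in exercised young fish. Replicates 1 to 5 of 27 weeks had 21.2, 27.2, 34.2, 80.9 and 24.0 CPM and replicates 6 to 10 had 61.9, 75.2, 81.8, 70.6 and 76.1 CPM. Replicate 4 alone brought the first title run into the range of the second, and the other 4 fish of its run were below all 5 of the second. The 2 leading genes thus met the requirement of overlapping title runs in different ways.

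**Figure D2:**
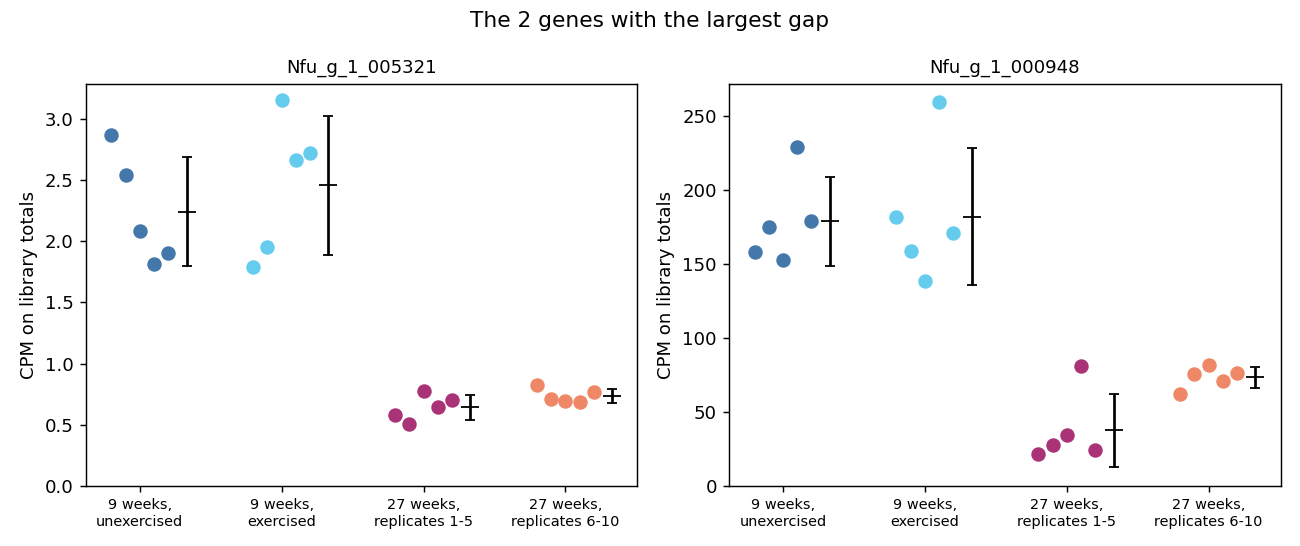
CPM on library totals of Nfu_g_1_005321 and Nfu_g_1_000948 in each fish (points) with the mean and SD of each set of 5 (bars at the right). In the first gene all 10 old fish lie from 0.502 to 0.823 CPM, and in the second replicate 4 stands at 80.9 CPM above 21.2 to 34.2 CPM in the rest of its title run.

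Levels differed widely between genes of the set. Per length, as CPM on each library's own total divided by length in kb (RPKM), the mean level ran from 0.407 to 301.3 with a median of 8.22, against a median of 5.12 over all genes in the limits. At least 10 RPKM was reached by 61 genes, 50 by 6 and 100 by 3. Gene length had a median of 2.42 kb in the set and 2.82 kb in all genes, with the middle 50% at 1.38 to 5.17 kb and 1.43 to 4.84 kb. Genes under 1.5 kb made up 28.0% of the set and 26.3% of all genes, and genes of 4 kb or more made up 37.3% and 33.5%. The median ratio of young over old was 1.93 in the shortest of these classes, 1.98 in the middle one and 1.76 in the longest.

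Library trends on gene length also differed between the sets of fish and were examined beside the fall. In each library the log2 level of a gene, minus that gene's mean over the 20 libraries, was fitted on log2 length. The slope averaged 0.0184 ± 0.0113 (SD, n = 10) at 9 weeks, -0.0346 ± 0.0172 (SD, n = 5) in replicates 1 to 5 and -0.00222 ± 0.0144 (SD, n = 5) in replicates 6 to 10. Such slopes cancel over all libraries, so opposite mean signs at the ages are forced. They do not tell whether level itself rises or falls with length. All of replicates 1 to 5 lay below the 9-week fish, which spanned 0.00404 to 0.0392, while replicates 6 to 10 spanned -0.0256 to 0.0138 and overlapped with them. After the slope of each library was taken out, the median difference of the set was -0.87, against -0.88 before. All 150 genes had a lower mean at 27 weeks, and their smallest difference was -0.47, against -0.51 before. Slopes this small could not turn the sign of any gene of the set, so the signs were fixed in advance. Whether the length trend bears on the fall was not tested.

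By mean level, 38 genes were under 10 CPM, 84 were from 10 to under 50 CPM and 28 were at 50 CPM or more. The class under 10 CPM held 25.3% of the set and 42.4% of all genes in the limits. Its median ratio was 2.20, against 1.75 and 1.84 in the other 2 classes, while the median gap was alike in all 3 at 0.279 to 0.290. The genes were chosen by the gap, which has 0.5 CPM added while the ratio has not, so nothing is read from these values. Nfu_g_1_005321 and Nfu_g_1_017571 reached the limit of 1 CPM only through young fish. Their means in replicates 1 to 5 and 6 to 10 of 27 weeks were 0.642 and 0.737 CPM, and 0.859 and 0.604 CPM.

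The older fish did not all sit at the same depth below the young ones. On library totals the median difference from the 10 young fish was -0.98 in replicates 1 to 5 and -0.77 in replicates 6 to 10, both measured against the same fish. All genes in the limits had medians of 0.03 and -0.20, so relative to them the set lay at -1.01 and -0.57. The fall of replicates 6 to 10 was 81.0% of that of replicates 1 to 5 in the median gene and ranged from 47.8% to 162.6%. It was at least 75% in 91 genes and 100% or more in 24 genes. With TMM scaling the differences were -1.05 and -0.59, where all genes had -0.05 and -0.02. The share was then 55.0% in the median gene, with a range of 27.9% to 131.4%, and it was at least 75% in 19 genes and 100% or more in 3. The choice of the genes required the title runs to overlap on library totals, which limits how far the share can lie from 100%. The share is not given for all genes, so these values are a description.

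**Figure D3:**
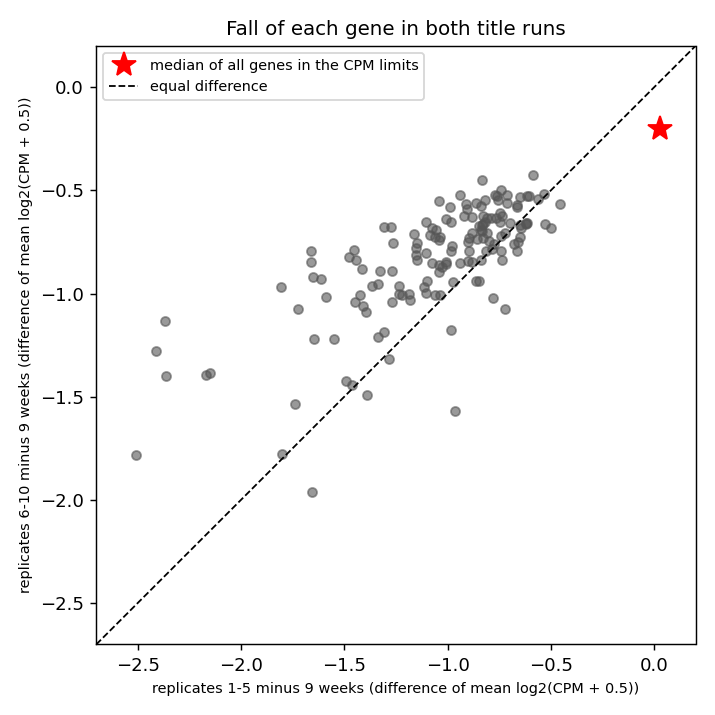
Difference of mean log2(CPM + 0.5) from the 10 fish of 9 weeks in replicates 1 to 5 (horizontal) and 6 to 10 (vertical) of 27 weeks, 1 point per gene, on library totals. Both axes share the same young fish. Of the 150 points 84.0% lie above the dashed line of equal difference. Of all 16648 genes in the limits only 5785 would lie above it, and 65.3% would lie below. The star marks the median of all genes in the limits, at 0.03 and -0.20.

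The description of the set as lower alike in all older fish holds for overlapping ranges on library totals and depends on that scaling. The median difference of replicates 6 to 10 from replicates 1 to 5 was 0.17 on library totals, where all genes had -0.23, and 0.44 with TMM scaling, where all genes had 0.03. TMM scaling thus moved the median of all genes by 0.26 between the title runs. Relative to all genes the set was higher in replicates 6 to 10 by 0.40 on library totals and by 0.41 with TMM scaling. A scaling factor moves all genes of a library nearly alike on the log2 scale, so these values had to be close. They are not separate results. The choice of the genes also required the title runs to overlap on library totals, which limits this difference in the set but not in all genes. The mean was higher in replicates 6 to 10 for 84.0% of the genes on library totals and for 98.0% with TMM scaling. Of all 16648 genes in the limits it was higher in 5785 on library totals and in 8673 with TMM scaling. With TMM scaling 78.0% of the 150 genes had every old fish below every young fish, and in 76 genes the title runs overlapped as well. Over all genes in the limits 347 had the ages apart in this way, against 644 (3.87%) on library totals. The genes were chosen by this separation, so their share is a description.

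Calls from fits across all genes are listed as a description, because the choice of the genes used each of these contrasts. In edgeR's quasi-likelihood test with TMM scaling and a Benjamini-Hochberg adjusted p under 0.05, all 150 genes passed the expression filter in every fit. Of the 150, 150 were called lower in 27-week than in exercised 9-week fish, where 11.3% of all 18801 genes tested were, and 3.87% of genes in the limits had non-overlapping ages in this direction. With replicates 1 to 5 alone 150 were called lower (24.5% of all genes tested), and with replicates 6 to 10 alone 91.3% of the 150 were (7.63% of all genes tested). Both fits share the exercised 9-week fish. The median fitted log2 fold change was -0.84 in the pooled fit, -1.08 for replicates 1 to 5 and -0.60 for replicates 6 to 10. Against unexercised 9-week fish 150 genes were called lower in the pooled fit (12.1% of all genes tested), 150 with replicates 1 to 5 (22.3%) and 93.3% of the 150 with replicates 6 to 10 (7.03%). The share of all genes called lower moved with single fish. In the pooled fit it was 6.30% to 13.0% over the left-out fish, lowest without exercised 9-week replicate 4 and also low without replicates 3 (7.28%) and 5 (7.08%), and it was 20.0% with all 20 libraries in 1 fit. For replicates 6 to 10 it was 4.54% without replicate 10, 4.72% without replicate 9, and 4.66% and 5.03% without exercised 9-week replicates 4 and 3.

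Between the title runs, 103 genes of the set were called, where 41.6% of all 18306 genes tested were called in either direction. All 103 were higher in replicates 6 to 10, a direction called in 20.3% of all genes. The median fitted log2 fold change was 0.47, against 0.05 over all genes tested. The requirement of overlapping title runs bears on this contrast, so nothing is read from the count.

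Nfu_g_1_018873 had the widest fitted difference between the title runs, with a log2 fold change of 1.52. Its levels were 12.1, 10.6, 17.7, 5.57 and 13.7 CPM in replicates 1 to 5 and 35.9, 17.0, 27.4, 34.6 and 25.1 CPM in replicates 6 to 10. On library totals the title runs met only through replicate 3, the highest of the first run, and replicate 7, the lowest of the second. The fit used TMM scaling, and the difference of mean log2 levels was 1.24 on library totals and 1.51 with TMM scaling. Nfu_g_1_015824 followed with 1.32, from 1.07, 1.58, 1.20, 1.79 and 1.55 CPM to 1.77, 2.95, 3.41, 3.36 and 3.47 CPM. Here replicates 4 and 6 made the overlap on library totals, at 1.79 and 1.77 CPM. The difference of mean log2 levels was 0.84 on library totals and 1.06 with TMM scaling.

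At the other end stood Nfu_g_1_015413 and Nfu_g_1_017571, with fitted log2 fold changes of -0.29 and -0.22 that were not called. Over the left-out fish these were -0.47 to -0.18 and -0.44 to -0.06. Both were lowest without replicate 8, where Nfu_g_1_015413 was called lower in replicates 6 to 10, and the second was -0.06 without replicate 3 and -0.09 without replicate 7. Nfu_g_1_015413 had 28.5, 23.4, 31.4, 30.6 and 26.4 CPM in replicates 1 to 5 and 19.5, 14.7, 27.9, 18.4 and 13.4 CPM in replicates 6 to 10. On library totals 4 of the 5 later fish were thus below the whole first run. The fits used TMM scaling, with which the difference of mean log2 levels was smaller, at -0.33 against -0.60 on library totals. Young fish had 36.0 to 69.1 CPM of Nfu_g_1_015413. Nfu_g_1_017571 had 0.728, 0.753, 1.26, 0.596 and 0.960 CPM in the first run and 0.601, 0.339, 0.954, 0.523 and 0.606 CPM in the second, with widely overlapping ranges. Its level in young fish, 1.82 to 5.58 CPM, came from 61 to 205 counts per library, and that in old fish from 10 to 44.

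**Figure D4:**
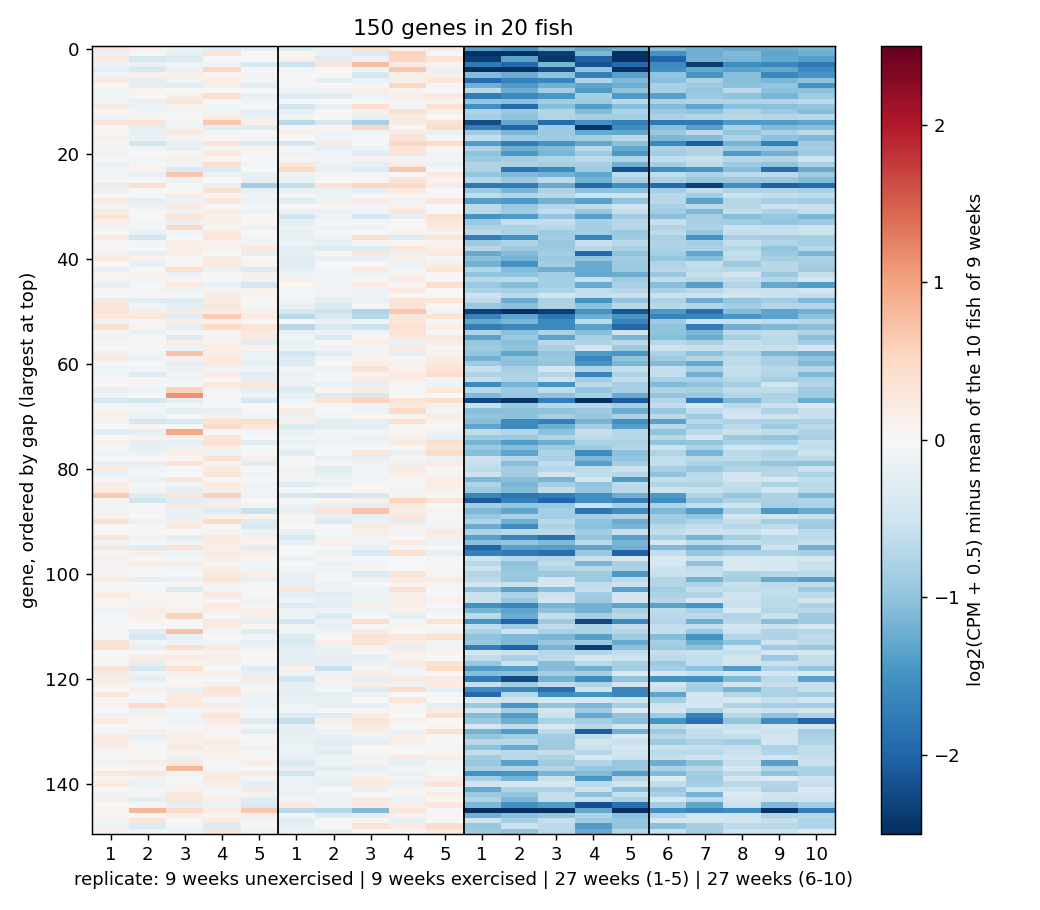
Each of the 150 genes (rows, widest gap at the top) in each of the 20 fish (columns, black lines between sets) as log2(CPM + 0.5) minus the mean of the 10 fish of 9 weeks, on library totals; blue is lower. The 10 columns of 27 weeks are blue in all rows, and replicates 1 to 5 are the darker columns in most rows, with a median difference of -0.98 against -0.77.

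The set was at close levels in exercised and unexercised young fish, whose ranges the choice of the genes required to overlap. A wide gap also favours genes with a low spread, so the values and calls in this paragraph are a description. The median difference of exercised from unexercised fish was -0.03 on library totals and 0.05 with TMM scaling, and all genes in the limits moved with the scaling from -0.06 to 0.02. Exercised fish had the lower mean in 94 genes (62.7%) on library totals, where 61.2% of all genes in the limits did. With TMM scaling it was 51 genes (34.0%), where 46.6% of all genes did. The direction of the majority thus turned with the scaling in the set and in all genes. Relative to all genes the set differed by 0.03 and 0.04, values that had to be close because scaling moves all genes of a library nearly alike. In edgeR's test 0 of the 150 genes were called for exercise, where 0.0108% of all 18520 genes tested were. An unadjusted p under 0.05 was found for 11.3% of the 150 and 14.8% of all genes. limma-voom called 0 of the 150 and 0.0108% of all genes. DESeq2 called 1.33% of the 150 and 2.87% of all genes with an adjusted p, and its 2 genes in the set were Nfu_g_1_018873 and Nfu_g_1_019742, the second named after its values were seen.

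Nfu_g_1_018873 also had the highest fitted difference for exercise, a log2 fold change of 0.72. Unexercised fish had 44.2, 44.3, 48.8, 58.8 and 44.1 CPM and exercised fish 55.7, 78.5, 88.6, 76.4 and 80.9 CPM. On library totals a single exercised fish, replicate 1, fell below the highest unexercised fish. With TMM scaling, edgeR called this gene when replicate 1 was left out. Nfu_g_1_009126 followed with 0.55, from 10.4, 10.6, 9.72, 8.80 and 7.33 CPM without to 9.50, 14.1, 18.3, 12.6 and 11.9 CPM with exercise. Replicate 1 was again the one exercised fish inside the unexercised range.

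The lowest fitted differences for exercise were those of Nfu_g_1_003428, at -0.80, and Nfu_g_1_003248, at -0.46. Nfu_g_1_003428 had 165.4, 286.3, 223.7, 182.6 and 254.4 CPM in unexercised and 102.1, 96.1, 74.0, 197.5 and 156.1 CPM in exercised fish. Exercised replicate 4 alone reached into the unexercised range. At 27 weeks it had 21.9, 24.8, 26.6, 65.5 and 17.3 CPM in replicates 1 to 5, with replicate 4 apart as in Nfu_g_1_000948, and 55.3, 51.1, 53.1, 29.0 and 48.0 CPM in replicates 6 to 10. Nfu_g_1_003248 had 38.0, 38.1, 29.2, 49.0 and 33.5 CPM without exercise and 19.1, 22.8, 17.3, 35.4 and 38.2 CPM with it. Exercised replicates 4 and 5 lay among the unexercised fish and the other 3 below them all.

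Single fish decided the edges between the ages in many genes. The lowest young fish was exercised replicate 1 in 45 genes, exercised replicate 2 in 26 and exercised replicate 3 in 24, and unexercised replicates 5 and 2 in 23 and 20. Exercised replicate 4 was the lowest young fish in 0 genes. The highest old fish came from replicates 6 to 10 in 107 genes, among them 42 with replicate 8 and 25 with replicate 10, and from replicates 1 to 5 in 43. Exercised replicate 1 also had the lowest TMM factor of the young fish, 0.910, and with TMM scaling its mean over the set was 4.76 against 4.74 to 4.96 in the rest of its group.

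Where a fish lay that took no part in the choice was described by leaving it out. The rule was repeated 20 times with 1 fish left out, each time giving 150 genes, of which 79.3% to 98.7% were in the set. The left-out old fish was below every young fish in 91.3% (replicate 4) to 100% (replicates 1 and 2) of the genes chosen without it, with a mean of 96.5% ± 3.11 (SD, n = 10). The left-out young fish was above every old fish in 92.7% (exercised replicate 3) to 100% of genes, with a mean of 97.3% ± 2.88 (SD, n = 10). A second measure was the side of the midpoint between the mean log2 levels of the ages. The left-out fish lay on the side of its own age in 83.3% (replicate 8 of 27 weeks) to 100% of genes. The mean was 91.9% ± 5.36 for old and 94.9% ± 5.06 for young fish (SD, n = 10 each). The genes chosen in each repeat overlap, so the 20 shares of each measure are not independent. Neither share was computed over all genes, so these shares are a description and no test of the set.

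**Figure D5:**
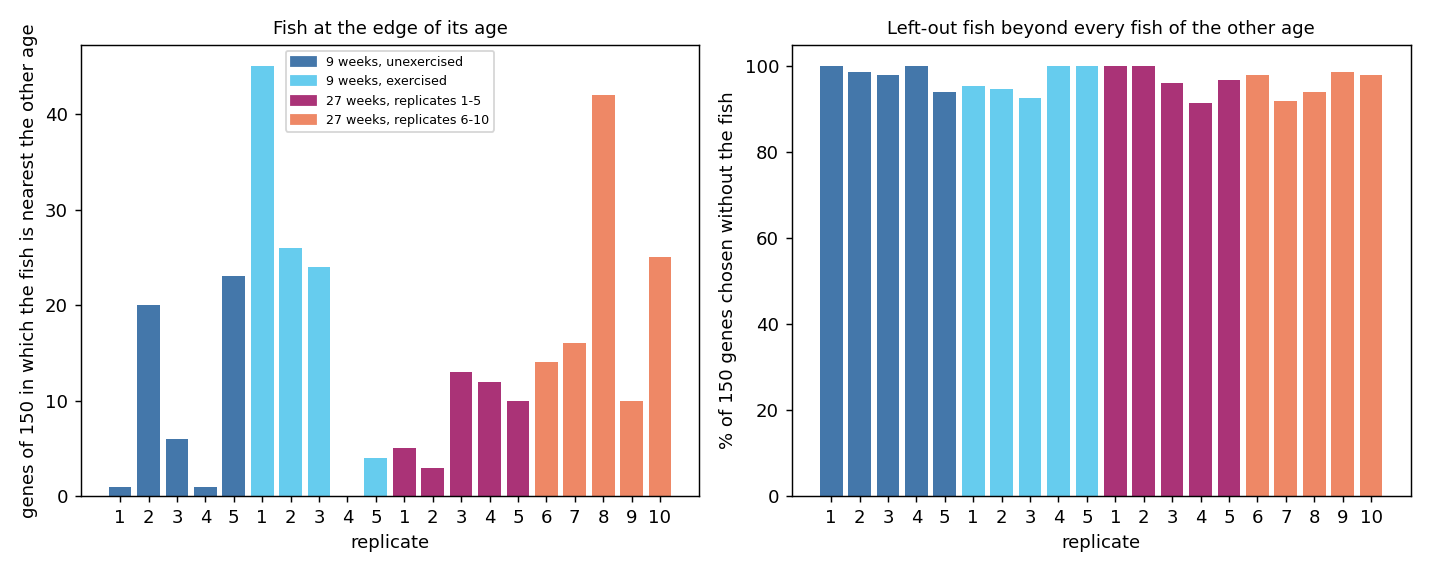
Left, the number of the 150 genes in which each fish is the one nearest to the other age (lowest of the young or highest of the old), by replicate and coloured by set, with 45 for exercised replicate 1 and 42 for replicate 8 of 27 weeks. Right, the percentage of the 150 genes chosen without a fish in which that fish lies beyond every fish of the other age, from 91.3% to 100%.

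Inside the 4 sets of 5 fish the genes varied little and only partly together. The SD of log2(CPM + 0.5) had a median of 0.160 in unexercised and 0.190 in exercised young fish, 0.218 in replicates 1 to 5 and 0.157 in replicates 6 to 10. All genes in the limits had medians of 0.240, 0.236, 0.271 and 0.249, and a wide gap favours genes with a low spread. The highest fish had more than 2 times the CPM of the lowest in 28 genes among replicates 1 to 5, in 10 among exercised young fish, in 6 among replicates 6 to 10 and in 4 among unexercised young fish. Replicate 4 of 27 weeks was the highest of its title run in 43 genes and the lowest in 45. In that run replicate 3 was the highest in 45 genes and replicate 2 the lowest in 51. Replicate 4 stood more than 0.5 above the next fish on the log2 scale in 8 genes and more than 0.5 below in 4. Other fish did likewise, with unexercised replicate 3 of 9 weeks above in 8 genes and replicate 7 of 27 weeks below in 5.

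After the mean of each set was subtracted, Pearson's r over the 20 libraries had a median of 0.196 across the 11175 pairs of genes in the set and 0.131 across all pairs of genes in the limits. It was over 0.5 in 15.9% of pairs in the set and 12.0% of all pairs, and below 0 in 28.3% and 35.2%. These points share library totals and scaling, and r is given as a description. The first axis of this variation held 25.4% of the variance in the set and 24.3% in all genes. Of the 8 genes with replicate 4 of 27 weeks more than 0.5 above the next fish, Nfu_g_1_000948 and Nfu_g_1_003428 are named here, and they had an r of 0.75 with each other, a pair picked after that fish was seen. Among identifiers, 4 pairs in the set had numbers at most 2 apart, with r from -0.25 to 0.38. What the numbering follows is not given in the sources used here.

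The same rule in the other direction kept 46 genes that were higher in every old fish, against the 450 that were lower. Before the overlap requirements the numbers were 84 and 644. With TMM scaling 311 genes were higher and 347 lower in every old fish, and 109 and 191 were kept. Under this rule lower genes were thus in excess with both scalings, and the size of the excess depended on the scaling. Calls over all genes tested did not show this excess in edgeR. Its pooled fit against exercised young fish called 2487 genes higher and 2122 lower in old fish. Each title run fitted alone also had more genes called higher than lower. In the pooled contrast limma-voom went the other way, with 1987 higher and 2465 lower. The direction over all genes thus depended on the measure.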

How the data were processed

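Whole-skin RNA was sequenced in 20 libraries with the TruSeq RNA kit, per the labels' protocols. The submitters' processing notes name featureCounts 1.4.6-p4, STAR 2.4.1d and bcl2fastq 1.8.4. For build, annotation, strand and multiply matching reads, nothing is stated in the sources used here, so overlapping genes, close copies and antisense partners may share reads. The deposited counts are unnormalized reads per gene. The RPKM values deposited by the authors divide by another library's total for most values (totals recycled down the rows), so they served only to recover gene lengths, from values with at least 20 counts and 0.05 RPKM. The relative SD between libraries was 7.4e-05 in the median gene.

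Members and lists were chosen with earlier results of these data known. Named genes were the 2 with the largest gap, and the 2 at each end of the fitted change between the title runs (JM132 to JM136, JM140 to JM144) and for exercise. Marker and pathway lists needed gene names and were not used. Fits used edgeR 4.0.16 (R 4.3.3) with TMM, its expression filter, robust quasi-likelihood and a Benjamini-Hochberg threshold of 0.05 over all genes, with only the compared groups, and were checked on generated counts. Alternatives were DESeq2 1.42.0, its size factors, limma-voom (limma 3.58.1), no filter, all libraries in 1 fit, unexercised fish as reference, other scalings, pseudocounts and limits in the rule, removal of the length trend, and leaving out each fish. Replicate numbers follow sample order and pair no fish. Arithmetic outside the fits used Python 3.11.15.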

Additional observations from a re-analysis of the deposited data

Results flagged for a closer look

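Replicates 1 to 5 and 6 to 10 of 27 weeks, with labels in common, differed by a test of the difference in 103 of the 150 genes (edgeR, adjusted p under 0.05), all higher in replicates 6 to 10. Of all genes tested 41.6% were called in either direction and 20.3% in this one, and the choice of the genes used the overlap of these fish, so nothing is read from the count. The cause was not tested. Among 45 checks of single fish within groups of 5 or 10, 2 values stood far from the rest, where chance gives about 2.25 for unselected values. The genes were selected, so the 2 numbers are not compared. Replicate 6 of 27 weeks had the lowest Nfu_g_1_015824 of replicates 6 to 10, where log2(CPM + 0.5) was 1.18 and the nearest other fish had 1.79. The overlap of title runs that the rule required came through replicate 6 in this gene. Replicate 9 had the lowest Nfu_g_1_003428 of the same title run, with 4.88 and 5.60 by the same measure.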

How the results depend on the processing

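The scaling used in the rule changed the set most. With TMM-scaled CPM 191 genes were kept before the limit and 45.3% of the 150 were chosen again, and with DESeq2's size factors 192 and 50%, against 450 and 100% on library totals. The other pseudocounts, limits and removal of the length trend kept both counts within 1.5 times. Leaving out 1 fish gave 441 to 619 genes kept, the most without exercised 9-week replicate 1, and 79.3% to 98.7% of the 150 chosen again. Calls of the set over the left-out fish were 91.3% to 100% for age, 100% to 100% for replicates 1 to 5, 77.3% to 92.0% for replicates 6 to 10, 50% to 70.7% between the title runs and 0% to 0.667% for exercise. Median fold changes were -0.87 to -0.79 for age, -1.12 to -1.03 and -0.62 to -0.57 for the title runs, 0.43 to 0.50 between them and -0.0148 to 0.037 for exercise. The last turned to -0.0042 without exercised replicate 4 and to -0.0148 without unexercised replicate 3, and the cause was not tested. DESeq2 called 1.33% of the set for exercise, against 2.87% of all genes. Over the left-out fish the share of all genes called was 6.30% to 13.0% lower for age, 20.1% to 24.9% and 4.54% to 6.79% for the title runs, 36.5% to 41.6% between them and 0% to 0.0376% for exercise. All other alternatives of the fits kept the direction of each median of the set and each of its counts within 1.5 times. No paired analysis was possible because the labels give no replicate numbers shared between groups. At the lowest count of 10, counting error alone is wide.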
